A study of Mus musculus with 13 samples.

Results

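Calcium handling and excitation-contraction coupling were described through 33 genes out of 55536 in the deposited count table. They were taken by symbol from a list of genes of the pathway. No value entered that rule, but the list was chosen with earlier results of these data known. By role, 12 belong to calcium release and its store, 2 to calcium reuptake, 5 to calcium channels of the surface membrane, 2 to store-operated entry, 8 to kinases, phosphatase and calmodulin, and 4 to mitochondrial calcium transport. All 33 passed the filter on low counts and were among the 16125 genes tested.

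RNA was sequenced from heart ventricles of C57BL/6J mice that had received, on postnatal day 1, a single intraperitoneal injection of an adeno-associated virus of serotype 6, and ventricles were taken on postnatal day 56. The vector carried human PGR, the progesterone receptor (PGR libraries), or no insert (control libraries), so the controls had received the same virus. The groups held 3 libraries of PGR females (replicates 1, 2 and 4), 4 of control females, 3 of PGR males and 3 of control males. Each library pooled 3 to 6 whole ventricles, and RNA came from nuclei sorted for Pcm1, a protein of the nuclear surface of cardiomyocytes. The labels name no promoter that would restrict the vector to a cell type.

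In a heart muscle cell, an action potential opens L-type calcium channels, and the calcium that enters opens ryanodine receptors, which release calcium from the sarcoplasmic reticulum, the internal store. Junctophilins hold the surface membrane close to the store, and calsequestrin, sarcalumenin and related proteins bind calcium inside it. Relaxation follows when the pump SERCA2 returns calcium to the store under the brake of phospholamban, while protein kinase A and the calmodulin-dependent kinases adjust these steps and mitochondria take up part of the calcium.

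Libraries held 31.8 M (PGR females, replicate 1) to 86.3 M counts (control males, replicate 1), and the 33 genes took 4.61 to 5.32% of them. Counts of the mouse gene Pgr were 1, 5 and 6 in PGR females and 8, 0 and 3 in PGR males, against 1 in each control female library and 0, 0 and 1 in control males. The human insert has no row of its own in the mouse table, so the vector labels could not be checked on it. Pcm1 was present at 103 to 139 CPM (counts per M, scaled between libraries) in all 13 libraries, and Xist at 740 to 1203 CPM in the female and at most 1.05 CPM in the male libraries. In control female library 4 the summed level of Y-linked genes was 1.03% of the male level, against at most 0.115% in the other female libraries. Without this library 338 genes (2.09%) passed an edgeR adjusted p of 0.05 for the averaged vector effect and 20 (0.124%) for that in females, against 1 and 0 with it. Summed cardiomyocyte markers (8 of 8 tested) reached 58388 to 71196 CPM in PGR libraries and 58510 to 71600 CPM in control libraries. Skeletal muscle markers summed to at most 0.498 CPM in every library, with 1 of 8 passing the filter.

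Levels of different genes were compared per kilobase of gene span, since the counted interval of each gene runs from its first to its last base with introns included. On this scale Pln, encoding phospholamban, had the highest mean level over the 13 libraries at 104 CPM per kb. Atp2a2, encoding the pump SERCA2, followed at 83.0 CPM per kb, and Ryr2, the ryanodine receptor of the heart, at 34.0 CPM per kb. Cacna1c, the pore of the L-type channel, had 26.3 CPM per kb. These are core genes of calcium entry, release and reuptake in working heart muscle, and their ranges over libraries did not meet those of the remaining 29 genes. Next came Hrc, a histidine-rich calcium-binding protein of the store, at 15.6 CPM per kb, Jph2 at 12.04 CPM per kb and Casq2, cardiac calsequestrin, at 7.54 CPM per kb. Hrc and Jph2 overlapped each other from library to library. At the lower end stood the calcium sensor Stim1 at 0.114 CPM per kb and Fkbp1b, the ryanodine receptor partner FKBP12.6, at 0.0218 CPM per kb. Fkbp1b rested on 2 to 17 counts a library, which is too few to show a difference of moderate size.

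**Figure D1:**
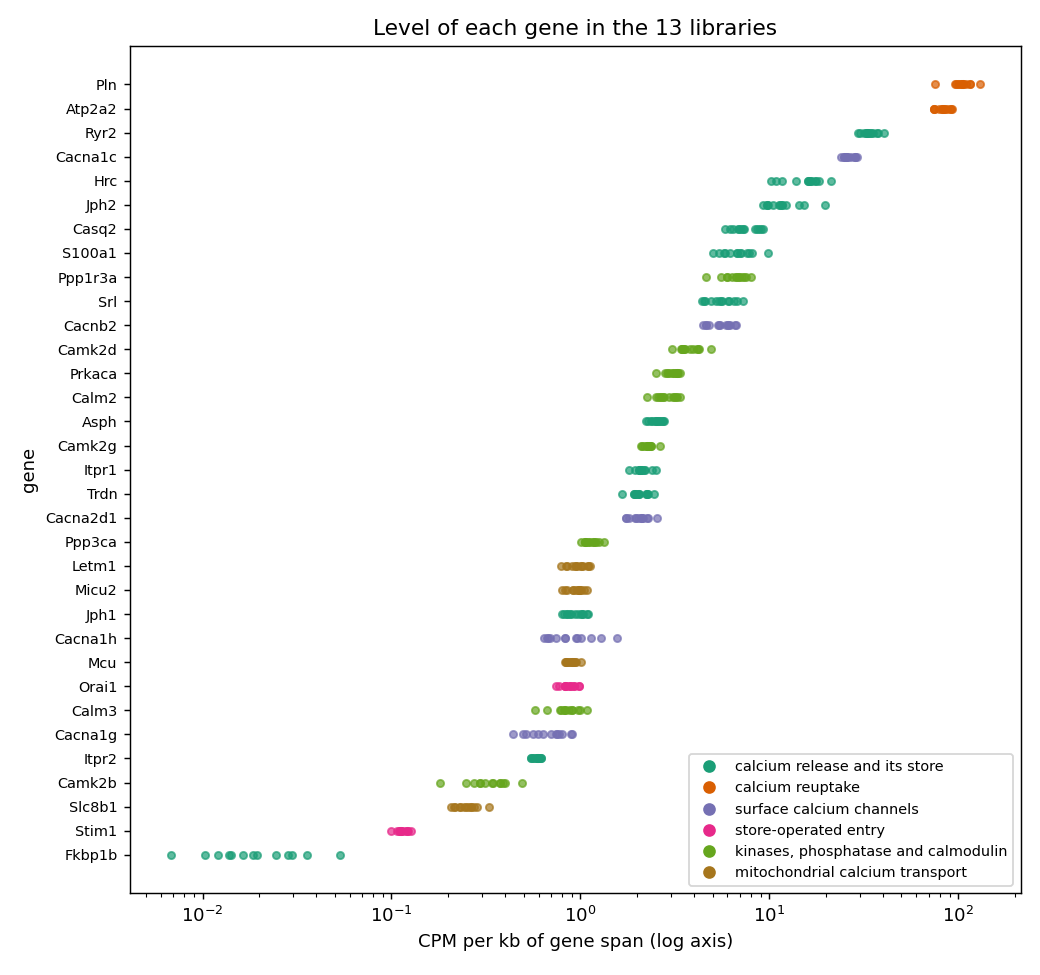
Each point is 1 of 13 libraries, the horizontal log axis gives CPM per kb of gene span, and genes run from the highest mean level at the top to the lowest at the bottom, coloured by role. Pln, Atp2a2, Ryr2 and Cacna1c lie apart at the top, and Fkbp1b, with 2 to 17 counts a library, spreads most.

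Most of the 33 genes varied little between libraries of the same group. The median within-group SD was 0.15 on the log2 CPM scale for them and 0.19 for all 16125 genes tested. Genes were not matched for level, so these medians do not show a trait of the 33 genes. Itpr2, an inositol trisphosphate receptor that releases calcium from internal stores, varied least at 0.05, and its CPM spanned only 1.13-fold over the 13 libraries. Fkbp1b varied most at 0.65, followed by the T-type channel gene Cacna1h at 0.41 and Hrc at 0.35. No gene on the same strand as a member and overlapping it had any counts. With whole gene spans counted, this does not show whether reads in shared stretches were left out of both genes. On the opposite strand D830005E20Rik, which overlaps Trdn, averaged 50165 counts against 39404 for Trdn (a gene for triadin, which ties calsequestrin to the ryanodine receptor). The libraries kept strand, per the labels, so such reads were counted apart.

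The first question was whether the PGR vector changed these genes. In none of the 3 comparisons of vectors did any of the 33 pass an adjusted p of 0.05 (edgeR quasi-likelihood test, Benjamini-Hochberg over 16125 genes). Over all tested genes the same threshold was passed by 0% in females, 0% in males and 0.0062% (1 gene) with the sexes averaged. That averaged count was 34 without PGR female library 4 and 338 without control female library 4. With DESeq2 members called numbered 0 in females (0.503% of all genes), 0 in males (0.18%) and 2 averaged (Srl and Jph2, 6.06% of 33, against 2.07% or 334 of all genes). With limma-voom they numbered 0 in all 3. At an unadjusted p under 0.05 in edgeR there were 4 members in females (12.1% of 33, against 10.9% of all tested genes), 4 in males (12.1%, against 7.48%) and 8 with the sexes averaged (24.2%, against 14.8%). Of these 8, 6 were lower in PGR libraries (Srl, Jph2, Orai1, Calm2, Letm1 and Calm3; 7.45% of all genes were lower at this p) and 2 were higher (Micu2 and Pln; 7.37% of all genes). Members above a log2 fold change of 0 numbered 12 of 33 in females (50.7% of all genes), 16 in males (50.1%) and 15 averaged (51%), and their median log2 fold change was -0.05, -0.02 and -0.01 in that order. The median of all tested genes was 0.00 in each. Each library is a pool of ventricles, so p-values measure the spread between pools. In such bulk libraries fewer cells of a type and less RNA per cell cannot be told apart.

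Among the genes of release and its store, Srl, which encodes the luminal calcium-binding protein sarcalumenin, had the smallest p in males and in the average, and Jph2 had it in females. Srl had 277, 343 and 302 CPM in PGR females against 415, 370, 322 and 347 CPM in control females. In males it had 282, 270 and 335 CPM with the PGR vector against 402, 448 and 378 CPM with the control vector. The male groups did not overlap, and in females only PGR library 2 reached into the control range, above the lowest control library. Its log2 fold change was -0.24 (SE 0.11) in females, -0.47 (SE 0.12) in males and -0.36 (SE 0.08) averaged, with an edgeR adjusted p of 0.0902 for the average. Without control female library 4 the averaged adjusted p was 0.0444 (edgeR), and over all single libraries left out it ran up to 0.268.

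Jph2, the junctophilin that anchors the store to the transverse tubules in heart, differed in the same direction and more in size. It had 601, 704 and 611 CPM in PGR females, against 1222, 753, 691 and 718 CPM in control females. PGR males had 599, 569 and 646 CPM, against 938, 889 and 723 CPM in control males. All 3 PGR male libraries lay below all 3 control male libraries, while in females the groups met at PGR library 2, and control library 1 stood far above the rest. The averaged log2 fold change was -0.45 (SE 0.13) with an edgeR adjusted p of 0.145. Control female library 1 decided the size in females, where the log2 fold change was -0.41 (SE 0.17) with it and -0.17 without it. Averaged over the sexes it was -0.33 without that library. None of the other 10 genes of release and its store had an unadjusted p under 0.05 for the average, and 8 of the 12 had an averaged log2 fold change above 0.

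The stretch just upstream of the annotated start of Jph2 is shown beside those of Orai1, Micu2 and Pln, the 4 of the 8 genes above printed here from the promoter table (RefSeq, GRCm38.p6; 21 of the 33 genes matched it). Each run is the 250 bases before the start, on the gene's own strand, and capitals mark TGTTCT, the core motif bound by steroid receptors of the progesterone receptor's class, or its reverse complement AGAACA.
Jph2 (chr2:163397994-163398243, minus strand): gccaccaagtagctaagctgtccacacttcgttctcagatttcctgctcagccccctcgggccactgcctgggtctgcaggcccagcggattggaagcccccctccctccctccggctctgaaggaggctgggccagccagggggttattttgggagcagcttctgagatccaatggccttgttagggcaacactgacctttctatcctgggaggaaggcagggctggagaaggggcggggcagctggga
Orai1 (chr5:123014824-123015073, plus strand): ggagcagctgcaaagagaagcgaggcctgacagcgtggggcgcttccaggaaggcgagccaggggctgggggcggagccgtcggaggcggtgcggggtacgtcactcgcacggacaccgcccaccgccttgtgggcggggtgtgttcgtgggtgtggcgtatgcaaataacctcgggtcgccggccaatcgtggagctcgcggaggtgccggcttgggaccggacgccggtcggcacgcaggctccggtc
Micu2 (chr14:57999263-57999512, minus strand): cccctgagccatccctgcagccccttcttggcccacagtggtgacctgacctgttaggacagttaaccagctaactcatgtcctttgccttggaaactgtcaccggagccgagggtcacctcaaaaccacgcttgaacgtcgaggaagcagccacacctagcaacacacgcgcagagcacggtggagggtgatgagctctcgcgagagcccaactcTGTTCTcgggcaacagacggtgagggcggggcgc
Pln (chr10:53337436-53337685, plus strand): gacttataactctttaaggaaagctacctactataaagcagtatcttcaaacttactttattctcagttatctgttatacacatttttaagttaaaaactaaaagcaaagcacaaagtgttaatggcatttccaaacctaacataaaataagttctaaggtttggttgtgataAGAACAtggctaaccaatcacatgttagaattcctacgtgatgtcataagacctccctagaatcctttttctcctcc
The motif occurred once in the window of Micu2, 34 bases before the start, and once in that of Pln, 77 bases before it, and not in the windows of Jph2 and Orai1. On either strand it was found in 15.4% of the 26 windows of the 33 genes and in 16.1% of all 32851 windows of that length. The site of MEF2 factors of muscle was sought with a loose pattern that left its middle bases free. A match to this pattern need not be a MEF2 site. The pattern was in 3.85% of member windows and 3.2% of all. The E-box CANNTG was in 69.2% of member windows and 66.2% of all. GGGCGG, the GC box, was in 57.7% of member windows and 32.7% of all. The GC content was 32.8% for the window of Pln, 62% for Jph2, 60.4% for Micu2 and 70.8% for Orai1. A match describes letters in this window only.

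The ryanodine receptor itself differed little between the vectors. Ryr2 had 18144, 18193 and 16680 CPM in PGR females against 18371, 20832, 19130 and 19482 CPM in control females, and the 2 groups did not overlap. In males the order differed, with 17543, 17921 and 22478 CPM in PGR libraries against 16356, 20573 and 18817 CPM in control libraries, which overlapped. Its averaged log2 fold change was -0.04 (SE 0.08). Casq2 had 386, 558 and 436 CPM in PGR females against 350, 374, 414 and 517 CPM in control females, and 411, 426 and 532 CPM in PGR males against 443, 503 and 543 CPM in control males. Its groups overlapped in both sexes, with an averaged log2 fold change of 0.02 (SE 0.11). Triadin (Trdn) at 0.04, junctin (Asph) at 0.01, Hrc at 0.09, S100a1 at 0.03, Itpr1 at 0.10 and Itpr2 at -0.01 had averaged log2 fold changes with an unadjusted p above 0.05. For S100a1, which encodes a calcium-binding activator of the ryanodine receptor and the pump, PGR females had 18.3, 22.5 and 19.4 CPM and control females 26.1, 16.9, 19.6 and 25.7 CPM. PGR males had 20.7, 27.1 and 32.95 CPM and control males 23.6, 22.6 and 23.7 CPM, so the groups overlapped in both sexes. Fkbp1b had the highest averaged log2 fold change of the 33 at 0.34, with an SE of 0.41 on its few counts.

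**Figure D2:**
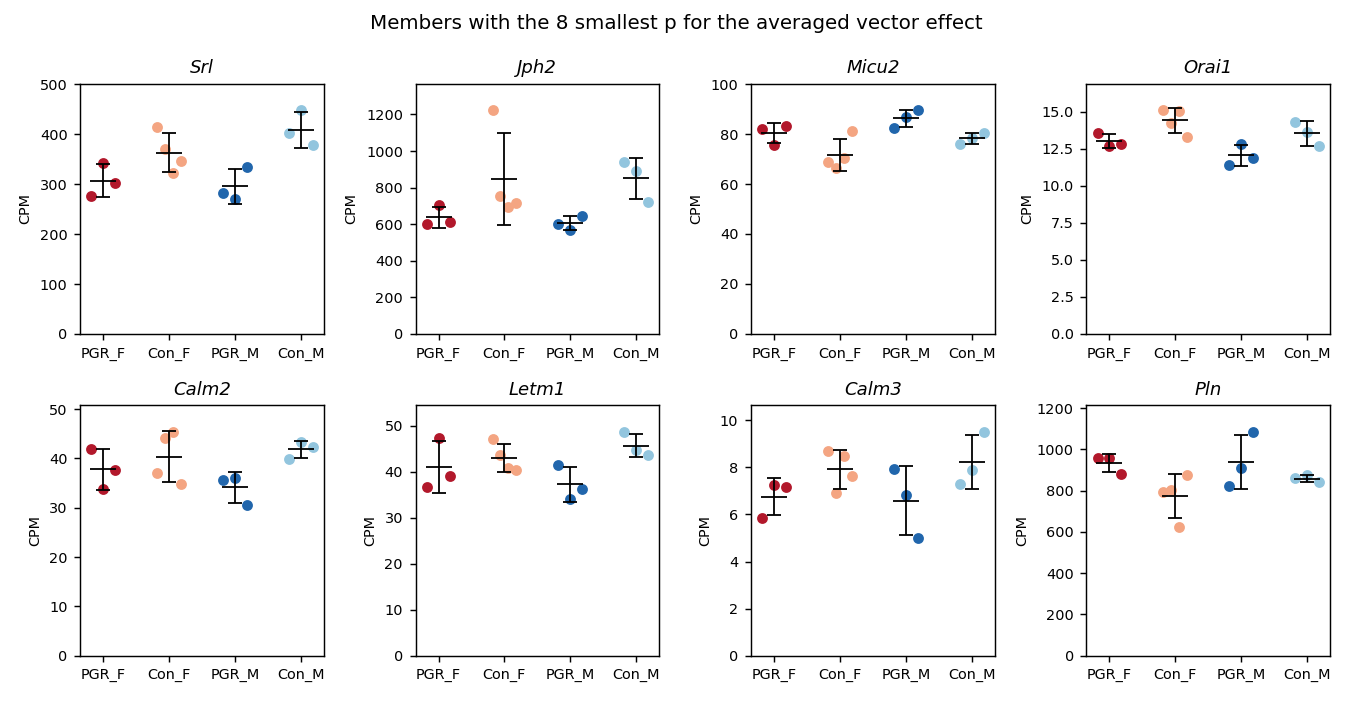
Points are libraries, in CPM from 0, for the 8 members with an unadjusted p under 0.05 in the averaged comparison, with PGR left of control within each sex and bars for mean ± SD. All 3 PGR male libraries lie below all 3 control male libraries for Srl, Jph2, Calm2 and Letm1 and above them for Micu2, and control female library 1 stands out for Jph2 at 1222 CPM.

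Reuptake differed between its members. Pln had 957, 960 and 882 CPM in PGR females, all above the 796, 805, 625 and 876 CPM of control females. In males it had 824, 912 and 1083 CPM in PGR libraries and 863, 874 and 840 CPM in control libraries, which overlapped. The log2 fold change of Pln was 0.27 (SE 0.11) in females, 0.13 in males and 0.20 (SE 0.08) averaged, with an edgeR adjusted p of 0.281 for the average. With single libraries left out the log2 fold change ran from 0.18 to 0.33 in females, and in males from 0.02 without PGR male library 3 to 0.22 without PGR male library 1. Atp2a2 had 4125, 4401 and 4100 CPM in PGR females, within the 4499, 4467, 4036 and 3994 CPM of control females. PGR males had 3610, 3641 and 4222 CPM, against 3870, 3986 and 3609 CPM in control males, also overlapping, and its averaged log2 fold change was -0.01 (SE 0.06). Within a library the ratio of Pln to Atp2a2, in CPM per kb, was 1.26 to 1.36 in PGR females against 0.907 to 1.28 in control females. It was 1.34 to 1.502 in PGR males against 1.28 to 1.36 in control males, so the ratios overlapped in both sexes.

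For the surface channels the differences between vectors were small beside their errors. Cacna1c had 17612, 15628 and 15556 CPM in PGR females against 16399, 14506, 15186 and 15797 CPM in control females. In males it had 15503, 15063 and 17245 CPM with the PGR vector against 15280, 17264 and 17359 CPM with the control vector, and groups overlapped in both sexes. Its averaged log2 fold change was 0.01 (SE 0.07). The auxiliary subunit genes Cacnb2 at -0.05 and Cacna2d1 at -0.04, and the T-type channel genes Cacna1g at -0.13 and Cacna1h at 0.01, had averaged log2 fold changes within or about 1 SE of 0. None of the 5 channel genes had an unadjusted p under 0.05 for the vector in either sex or averaged.

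In store-operated entry, Orai1, which forms the pore opened when the store runs low, had 13.5, 12.7 and 12.8 CPM in PGR females against 15.1, 14.3, 15.05 and 13.3 CPM in control females. PGR males had 11.4, 12.8 and 11.9 CPM and control males 14.3, 13.6 and 12.7 CPM. In each sex 1 PGR library reached above the lowest control library. The averaged log2 fold change of Orai1 was -0.16 (SE 0.06), with an edgeR adjusted p of 0.252. Stim1, which senses the calcium of the store, stood at 18.2 to 19.7 CPM in PGR libraries and 16.8 to 21.6 CPM in control libraries.

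Of the calmodulin genes, which encode the same protein, Calm2 had 42.0, 33.8 and 37.7 CPM in PGR females against 37.1, 44.1, 45.3 and 34.8 CPM in control females. In males it had 35.7, 36.1 and 30.5 CPM in PGR libraries, all below the 39.9, 43.2 and 42.4 CPM of control libraries. The averaged log2 fold change was -0.19 (SE 0.08) for Calm2 and -0.27 (SE 0.11) for Calm3, with edgeR adjusted p of 0.266 and 0.28. Camk2d, the main calmodulin-dependent kinase of heart muscle, had 945, 850 and 858 CPM in PGR females against 764, 867, 879 and 1033 CPM in control females. PGR males had 872, 1047 and 1224 CPM and control males 898, 986 and 1058 CPM, and the groups overlapped in both sexes. Its averaged log2 fold change was 0.05 (SE 0.09). Of the summed CPM per kb of the 4 Camk2 genes, Camk2d held 42.0 to 53.8% in PGR libraries and 40.4 to 48.2% in control libraries. Camk2b held 3.44 to 5.88% in PGR libraries and 2.45 to 4.58% in control libraries. The kinase A catalytic subunit gene Prkaca at -0.06 and the calcineurin subunit gene Ppp3ca at 0.09 did not pass either threshold for the average.

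Among the mitochondrial genes, Micu2, which encodes a gatekeeper of the calcium uniporter, had 82.0, 75.8 and 83.2 CPM in PGR females against 68.7, 66.5, 70.2 and 81.2 CPM in control females. PGR males had 82.6, 86.8 and 89.4 CPM, all above the 75.9, 78.3 and 80.6 CPM of control males. In females control library 4 lay within the PGR range. The averaged log2 fold change of Micu2 was 0.15 (SE 0.06), with an edgeR adjusted p of 0.241. Mcu, the pore of the uniporter, had 147, 144 and 143 CPM in PGR females within the 140.0, 142, 153 and 171 CPM of control females. It had 153, 156 and 161 CPM in PGR males against 149, 154 and 160 CPM in control males, with overlap in both sexes and an averaged log2 fold change of -0.02 (SE 0.06). Within a library the ratio of Micu2 to Mcu, in CPM per kb, was 1.14, 1.08 and 1.19 in PGR females and 1.101, 1.14 and 1.13 in PGR males. It was 1.00, 0.957, 0.939 and 0.969 in control females and 1.04, 1.04 and 1.03 in control males. All 6 PGR libraries thus lay above all 7 control libraries. This pair was picked after its values were seen and carries no test. Of the 528 pairs of members, 7 (1.33%) had ratios that separated the vectors in this way. Pairs of all tested genes were not examined and the 528 pairs reuse the same 33 genes, so this share has no background. Of single genes, 0 of the 33 and 0.62% of all tested genes separated the vectors, which is not a background for ratios. The other 6 pairs each held Srl or Jph2 with a second gene, or Orai1 with Pln. Letm1, an ion exchanger of the inner mitochondrial membrane, had 36.6, 47.4 and 39.0 CPM in PGR females, overlapping the 47.1, 43.6, 40.8 and 40.4 CPM of control females. In males it had 41.4, 34.0 and 36.3 CPM with the PGR vector, below the 48.6, 44.7 and 43.7 CPM with the control vector. Its averaged log2 fold change was -0.18 (SE 0.07), with an edgeR adjusted p of 0.269.

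**Figure D3:**
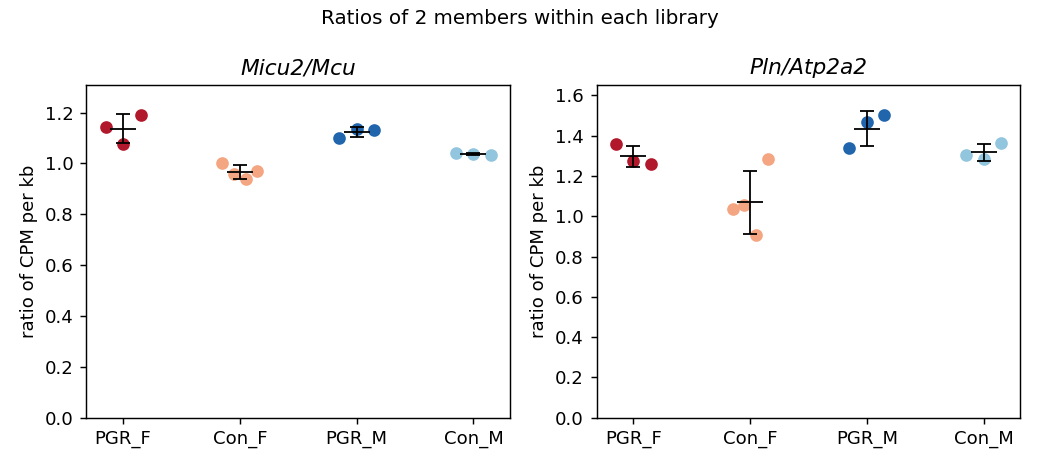
Ratios of CPM per kb within each library for Micu2 over Mcu and Pln over Atp2a2, with axes from 0, PGR left of control within each sex, and bars for mean ± SD. For Micu2 over Mcu all 6 PGR libraries (1.08 to 1.19) lie above all 7 control libraries (0.939 to 1.04), and for Pln over Atp2a2 the vectors overlap in both sexes.

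By overlap alone, the PGR and control libraries did not meet for 2 members in females (Pln higher, Ryr2 lower; 8.24% of all genes) and 5 in males (Micu2 higher; Jph2, Srl, Calm2 and Letm1 lower; 15.7% of all genes). As shares of the 33 these are 6.06% in females and 15.2% in males, near those of all genes. Of 8 endothelial markers, 0 had a log2 fold change above 0 in females and 8 did in males. Their sum was 35.2 to 59.8 CPM in PGR females against 50.3 to 60.0 CPM in control females, and 29.0 to 51.9 CPM in PGR males against 27.0 to 47.7 CPM in control males. Atrial and conduction markers were above 0 in 3 of 9 in females and 7 of 9 in males, with sums of 55.2 to 142 CPM in PGR males against 48.6 to 56.5 CPM in control males. Of the 8 cardiomyocyte markers, 6 were below 0 for the averaged vector effect, with a median log2 fold change of -0.17. The part of these markers in the values above was not tested.

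The difference of the vector effect between females and males was not detectable for any of the 33 genes. No member passed an unadjusted p of 0.05 for it, against 3.26% of all tested genes, 0 passed an adjusted p of 0.05 with edgeR (0% of all tested genes), DESeq2 (0.00621%) or limma-voom, and the adjusted p of the 4 genes named next was 1.00 (edgeR). The smallest unadjusted p belonged to Letm1, with an edgeR difference of 0.23 in log2 (SE 0.14), followed by Jph1 at 0.19 (SE 0.13), S100a1 at -0.34 (SE 0.24) and Srl at 0.23 (SE 0.16). These errors leave room for differences of that size. The vector effect had the same sign in females and males for 17 of the 33 genes (51.5%) and for 62.1% of all tested genes, in comparisons that share no library. Across genes, which are not independent replicates, Pearson's r between the 2 effects was 0.30 for the 33 genes and 0.31 for all.

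**Figure D4:**
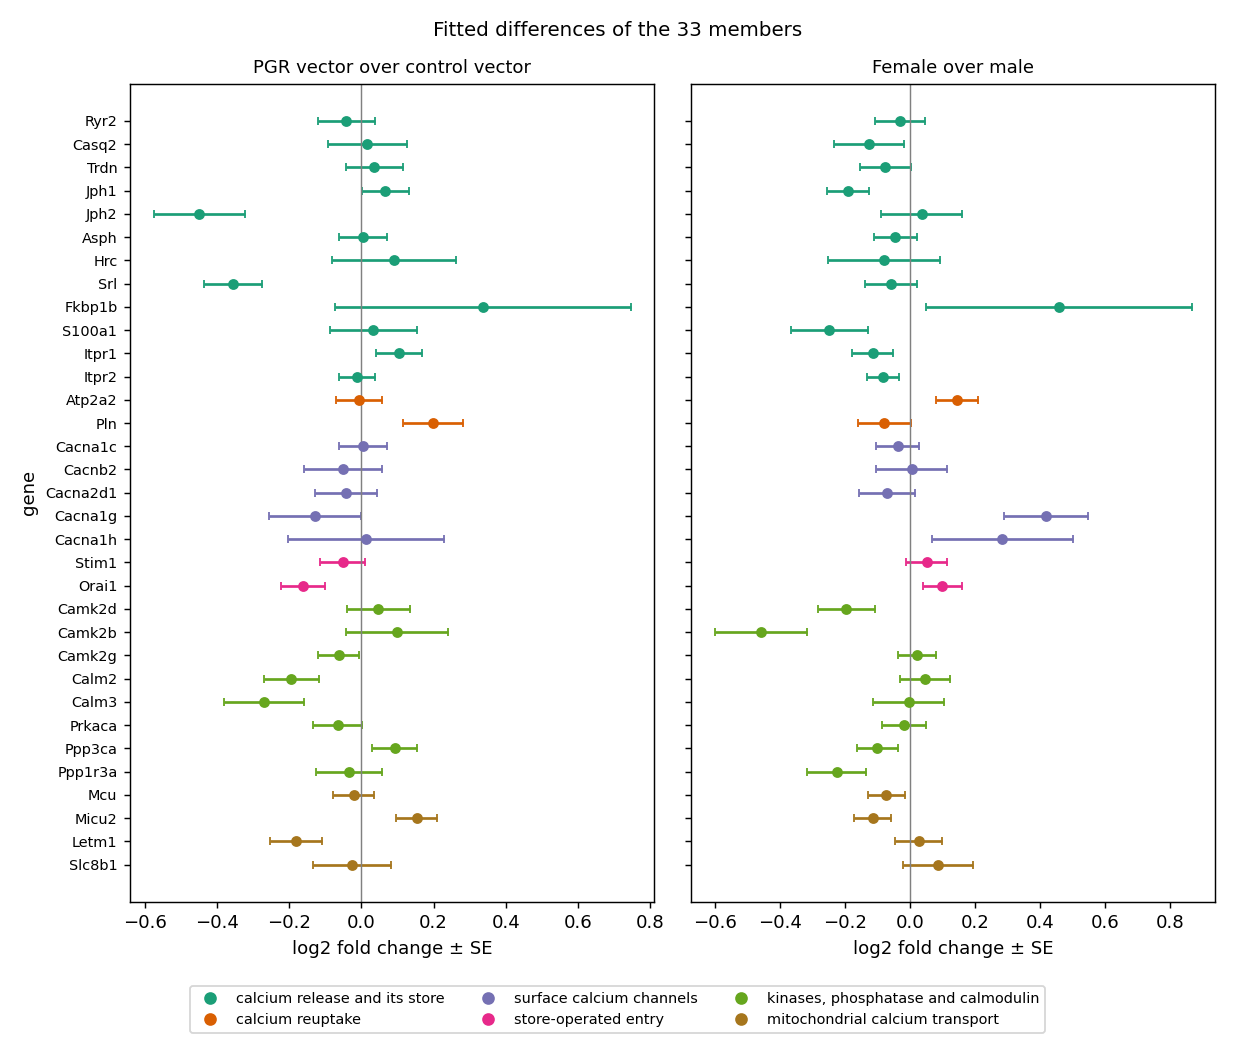
Averaged log2 fold change ± SE for each of the 33 genes, coloured by role, PGR over control vector at left and female over male at right. Jph2 (-0.45) and Srl (-0.36) lie farthest below 0 at left, Cacna1g (0.42) and Camk2b (-0.46) lie far from 0 at right, and Fkbp1b has the widest errors in both panels.

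The second question was whether the sexes differed. In edgeR no member passed an adjusted p of 0.05 under the PGR vector (0.143% of all genes did), under the control vector (0.229%) or averaged over the vectors (0.887%; this average was added after the data were seen). DESeq2 called 0 members under the PGR vector (0.497% of all genes), 0 under the control vector (1.39%) and 2 in the average (Cacna1g and Camk2b, 6.06% of 33, against 3.4% of all genes), and limma-voom 0 in all 3. At an unadjusted p under 0.05 in edgeR there were 3 members under the PGR vector (7.25% of all genes), 3 under the control vector (12.4%) and 6 averaged (18.2% of members, against 15.1% of all genes). These shares lie near those of all genes. Members with a log2 fold change, female over male, above 0 numbered 17 of 33 under the PGR vector (53.1% of all genes) and 10 under the control vector (50%), and 12 in the average (51.6%). Of the 12 genes of release and its store, 2 were above 0 in the average and 10 below, with a median of -0.08.

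The T-type channel gene Cacna1g had the smallest p of the members in the average over the vectors, while Camk2b had it under the PGR vector and Jph1 under the control vector. With the PGR vector it had 49.1, 49.6 and 45.7 CPM in females, all above the 41.5, 36.8 and 29.1 CPM in males. With the control vector it had 59.4, 52.3, 58.5 and 39.1 CPM in females against 51.0, 34.0 and 32.7 CPM in males, where female library 4 and male library 1 made the groups overlap. Its log2 fold change was 0.43 (SE 0.19) under the PGR vector, 0.41 (SE 0.18) under the control vector and 0.42 (SE 0.13) averaged, with an edgeR adjusted p of 0.142 for the average. Without control female library 4, or without control male library 1, the average passed the threshold, with adjusted p down to 0.0238 (edgeR). Over all single libraries left out it ran up to 0.323 (edgeR). Of all genes 371 passed without control female library 4 and 465 without control male library 1, against 143 with all libraries.

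Camk2b, a minor calmodulin-dependent kinase gene of heart, had the lower values in females under the PGR vector. PGR females had 28.5, 26.3 and 28.6 CPM, all below the 47.2, 38.6 and 32.9 CPM of PGR males. Control females had 23.9, 17.5, 30.2 and 36.2 CPM and control males 33.3, 37.7 and 36.3 CPM, overlapping through female library 4. The averaged log2 fold change was -0.46 (SE 0.14), with an edgeR adjusted p of 0.145, and 0.0358 without control female library 4. Over all single libraries left out this adjusted p ran up to 0.303 (edgeR). Camk2d was at -0.20 (SE 0.09) averaged and Camk2g at 0.02 (SE 0.06).

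Jph1, the junctophilin best known from skeletal muscle, had 144, 114 and 118 CPM in PGR females, overlapping the 147, 125 and 129 CPM of PGR males. Under the control vector it had 107, 113, 108 and 119 CPM in females, all below the 136, 135 and 138 CPM in males. Its log2 fold change under the control vector was -0.29 (SE 0.09), with an edgeR adjusted p of 0.225. Ppp1r3a, which targets protein phosphatase 1 to glycogen and to the store, had 274, 274 and 228 CPM in PGR females against 284, 247 and 312 CPM in PGR males, which overlapped. Control females had 261, 286, 191 and 246 CPM, all below the 301, 331 and 296 CPM of control males, with a log2 fold change of -0.33 (SE 0.12) and an edgeR adjusted p of 0.294. S100a1 under the PGR vector had a log2 fold change of -0.42 (SE 0.17), with groups that overlapped. Atp2a2 had an averaged log2 fold change of 0.15 (SE 0.06), and in control libraries all 4 females lay above all 3 males.

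**Figure D5:**
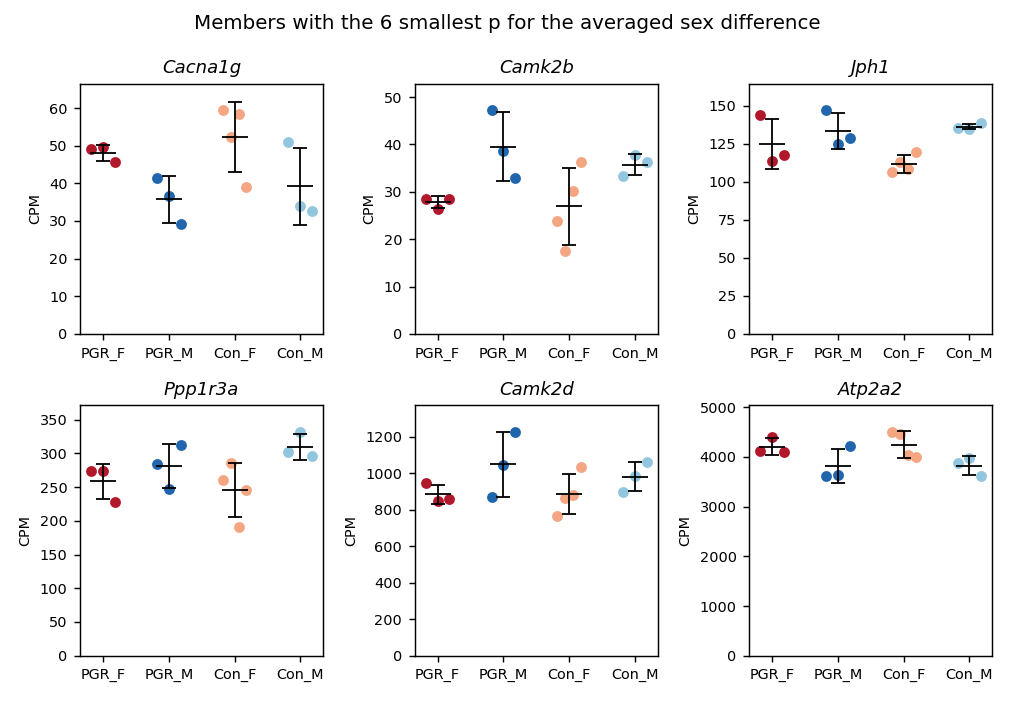
CPM per library, from 0, for the 6 members with an unadjusted p under 0.05 in the averaged sex difference, with females left of males within each vector and bars for mean ± SD. For Cacna1g and Camk2b the sexes separate under the PGR vector and overlap under the control vector, and for Jph1, Ppp1r3a and Atp2a2 they separate under the control vector.

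Female and male libraries did not overlap for 3 members under the PGR vector (Cacna1g higher; Camk2b and Mcu lower; 13.7% of all genes) and for 4 under the control vector (Atp2a2 higher; Jph1, Ppp3ca and Ppp1r3a lower; 11.3% of all genes). Over all libraries of both vectors 0 members separated the sexes, against 0.905% of all genes. The sign of the sex difference was shared between the vectors for 20 of the 33 genes (60.6%) and 62% of all tested genes. Fibroblast markers were above 0 in 7 of 7 in both sex comparisons, with sums of 36.4 to 67.7 CPM in PGR females against 22.8 to 54.3 CPM in PGR males, and of 47.2 to 71.5 CPM in control females against 19.2 to 42.0 CPM in control males. Endothelial markers were above 0 in 5 of 8 under the PGR vector and 8 of 8 under the control vector. Atrial and conduction markers were above 0 in 1 of 9 under the PGR vector and in 8 of 9 under the control vector, with sums of 78.1 to 120 CPM in PGR females against 55.2 to 142 CPM in PGR males, and of 66.8 to 156 CPM in control females against 48.6 to 56.5 CPM in control males. The part of these markers in the sex differences was not tested.

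Beyond the 33 genes, 79 further genes of the pathway were looked up and 73 were tested. For the vector, 0 of the 73 passed an adjusted p of 0.05 in females, in males or averaged with edgeR or limma-voom, and DESeq2 called 2 averaged (Tmem38a and Fkbp1a; 2.74% of 73, against 2.07% of all genes). At an unadjusted p under 0.05 in edgeR there were 7 of the 73 in females (3 higher, 4 lower), where 10.9% of all genes passed. In males there were 5 (3 higher, 2 lower), where 7.48% of all genes passed. Averaged there were 10 (5 higher, 5 lower; 13.7%, against 14.8% of all genes). The smallest averaged p belonged to Tmem38a, a counter-ion channel of the store that acts during release. Tmem38a had 143, 174 and 144 CPM in PGR females against 222, 171, 174 and 168 CPM in control females, and 140.0, 137 and 152 CPM in PGR males, all below the 196, 193 and 171 CPM of control males. Its averaged log2 fold change was -0.32 (SE 0.08) with an edgeR adjusted p of 0.107, which was 0.0451 without control female library 4 and ran up to 0.301 when other single libraries were left out. Fkbp1a, which encodes the ryanodine receptor partner FKBP12, had an averaged log2 fold change of -0.20 (SE 0.06). Its edgeR adjusted p was 0.137, or 0.0444 without control female library 4, and ran up to 0.316 when other single libraries were left out. In females Fkbp1a had 29.6, 28.3 and 27.9 CPM with the PGR vector against 31.4, 34.5, 34.8 and 29.2 CPM with the control vector. In males it had 26.0, 28.2 and 27.8 CPM with the PGR vector, below the 32.6, 31.5 and 31.2 CPM with the control vector, whereas the female groups overlapped. Gem, a small GTPase that restrains L-type channels, was at 0.71 (SE 0.21) from 0.405 to 1.60 CPM, with an edgeR adjusted p of 0.158. Sln, which encodes the pump inhibitor sarcolipin and is also an atrial marker, had a log2 fold change of 2.00 (SE 0.57) in males from values of at most 0.839 CPM. In females Ryr1 was at -1.43 (SE 0.55), on 3, 7 and 10 counts in PGR libraries and 8 to 29 in control libraries. The phosphatase 1 subunit gene Ppp1cc was at -0.21 (SE 0.08) there. The difference between the sexes in vector effect had its smallest p in Sln (-2.07, SE 0.74), Ryr1 (-1.47, SE 0.68) and Bin1 (-0.86, SE 0.40), the last known for shaping transverse tubules.

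The sexes differed past the threshold in 3 of these further genes with edgeR in the average (4.11% of 73, against 0.887% of all genes), and in 7 with DESeq2 (9.59%, against 3.4%). Atp2b2, a calcium pump of the surface membrane, was lower in females. It had 1.53, 1.71 and 1.55 CPM in PGR females against 3.40, 4.69 and 4.89 CPM in PGR males, and 1.13, 1.24, 1.51 and 1.64 CPM in control females against 3.09, 2.79 and 4.20 CPM in control males. The sexes did not overlap under either vector, and the log2 fold change was -1.43 (SE 0.20, edgeR adjusted p = 0.00407) under the PGR vector and -1.29 (SE 0.19, edgeR adjusted p = 0.00799) under the control vector. Ryr1, the ryanodine receptor of skeletal muscle, was lower in females as well, with 0.0936, 0.143 and 0.170 CPM in PGR females against 0.656, 1.46 and 1.58 CPM in PGR males. These values rest on 3, 7 and 10 counts in PGR females and 38, 68 and 77 in PGR males, so the size of the fold change is uncertain. Its log2 fold change under the PGR vector was -3.09 (SE 0.51, edgeR adjusted p = 0.0233), and there the adjusted p ran up to 0.178 when single libraries were left out, and limma-voom did not call it. Under the control vector Ryr1 had 0.399, 0.210, 0.191 and 0.767 CPM in females, all below the 0.955, 1.54 and 1.15 CPM in males, and the log2 fold change was -1.62 with an SE of 0.41 and an edgeR adjusted p of 0.143. In the average over the vectors it was -2.36 (edgeR adjusted p = 0.00253), the adjusted p stayed at or under 0.0136 with single libraries left out, and DESeq2 and limma-voom called it too. Under the control vector alone edgeR called Ryr1 and Tmem38b, a counter-ion channel gene of the store, beside Atp2b2 when control female library 4 was left out. These were 4.11% of the 73, against 0.568% of all genes. DESeq2 with all libraries called Atp2b2, Bin1, Itpr3, Ryr1 and Tmem38b there (6.85%, against 1.39% of all genes). In edgeR with all libraries 0.229% of all genes passed. Itpr3, an inositol trisphosphate receptor, was higher in females in the average over the vectors at 0.95 (SE 0.20, edgeR adjusted p = 0.0326), and its adjusted p ran up to 0.0829 when single libraries were left out. In the same average 7 of 7 fibroblast markers, 8 of 8 endothelial markers and 8 of 9 atrial and conduction markers had a log2 fold change above 0, and none passed the threshold (edgeR). The part of these markers in the Itpr3 value was not tested.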

How the data were processed

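Whole-number counts of reads for each gene in 13 libraries, not normalised, were deposited. STAR 2.5.3a, featureCounts 1.5.0, GRCm38 and mm10 appear, with no role given, in the submitters' processing notes. In all 55536 genes the length equalled end minus start plus 1, so introns are counted and nascent RNA can contribute. Libraries were strand-aware, per the labels. Depth ran from 31.8 M to 86.3 M counts.

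Tests were run in R 4.3.3 with edgeR 4.0.16: filterByExpr, TMM scaling, 4 group means fitted to 13 libraries, robust quasi-likelihood tests for 6 comparisons, Benjamini-Hochberg over 16125 genes, threshold 0.05. Averaging the sex difference was added later. The fit was tested on simulated data. Alternatives were RLE scaling, no filter, the smaller deposited table, DESeq2 1.42.0, limma 3.58.1, the compared groups alone, a replicate block, each library left out and a gene-length offset chosen after seeing the data.

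Members, lists and tests were chosen with earlier results of these data known. Values per library are given for Ryr2, Atp2a2, Pln, Casq2, Cacna1c, Camk2d, Mcu and the 4 members with the smallest p in each comparison. Of further pathway genes, those past the threshold, and otherwise the 3 with the smallest p in each vector comparison, are named.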

Additional observations from a re-analysis of the deposited data

Results flagged for a closer look

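In control females, the only group of 4 libraries, 42 genes were checked for a library whose gap to its nearest neighbour took up most of the group's range, past Dixon's critical value, and 4 were found. Chance gives about 1 such gene in 20. Jph2 stood at 1222 CPM in library 1, against 691 to 753 CPM in the other 3. Tmem38a stood at 222 CPM in the same library, against 168 to 174 CPM. Fkbp1b stood at 0.449 CPM in library 4, on 17 counts, against 0.120 to 0.163 CPM in the others. Itpr3 stood at 2.32 CPM in library 3, against 1.75 to 1.84 CPM in the others. In library 1 the shortest genes deviated by a median of 0.10 in log2 CPM from their mean over libraries, and in PGR female library 1 by -0.12. With this length trend taken out the log2 fold change of Jph2 in females was -0.44, against -0.41 with it left in. The part of gene length in the library 1 value of Jph2 was not tested.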

How the results depend on the processing

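The count of members past an adjusted p of 0.05 was 0 in every comparison and stayed at 0 under most alternatives. For the averaged vector effect it was 1 with no filter on low counts (Srl) and 2 with DESeq2 (Jph2 and Srl), and 0 to 1 with single libraries left out (Srl, without control female library 4). Genes called in all were then 146 of 31462 with no filter, 334 of 16111 with DESeq2 and 338 of 16189 without that library, against 1 of 16125. For the averaged sex difference it was 2 with DESeq2 (Cacna1g and Camk2b) and 0 to 2 with single libraries left out: both genes without control female library 4, Cacna1g without control male library 1. Members at an unadjusted p under 0.05 in females numbered 0 without PGR female library 1 and 5 without control female library 4, against 4 with all. The cause of these changes was not tested. Libraries of different groups with the same replicate number had correlations of -0.34 to 0.35 once group means were removed, with 7 of 16 over 0.1. The labels do not say what equal numbers share. With so few libraries a group, these correlations cannot show whether the numbers pair the libraries. With a replicate block 0 members were called in every comparison, and 2, 4, 6, 0, 2, 6 and 5 had an unadjusted p under 0.05 in females, males, averaged, their difference, PGR sex, control sex and averaged sex. The share of all genes at this unadjusted p is not given for the block or for single libraries left out. These counts therefore do not show whether members moved more than other genes. With the block Itpr3 was not called in the averaged sex difference.

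Of 1356 values of named genes, 1293 kept direction and side of the threshold, 16 lost and 14 gained it, and 33 changed sign, nearly all from log2 fold changes close to 0. In females Camk2d was 0.00398 with limma-voom and 0.0421 with the replicate block. Atp2a2 was -0.000631 in males with limma-voom and 0.00239 averaged without a filter, and Cacna1c averaged was -0.0318 with the gene-length offset. With single libraries left out, in females Camk2d ran from -0.0659 to 0.0800, Atp2a2 from -0.0441 to 0.0161 and Casq2 from -0.00509 to 0.279. In males Ryr2 ran from -0.0619 to 0.141, Atp2a2 from -0.0700 to 0.0403 and Camk2d from -0.0265 to 0.211. Averaged, Atp2a2 ran from -0.0432 to 0.0135, Casq2 from -0.0615 to 0.0792, Cacna1c from -0.0273 to 0.0246, Mcu from -0.0369 to 0.0109 and Camk2d from -0.0153 to 0.105. Fkbp1b, at 2 to 17 counts a library, and the 3 to 4 libraries a group limit what could be detected.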
